A study of Mus musculus with 22 samples.

Results

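Tumor-associated and control inguinal white adipose tissue (IWAT) of lean mice were compared, 5 libraries against 5. They are 10 of the 22 libraries of the series, chosen by the chow label and paired by the mouse number in the library names (mice 0, 2, 3, 6 and 9), and 13750 of the 23420 genes in the count table passed the filter on low counts and were tested. All mice were female, wildtype C57Bl/6 animals kept on their diet for 16 weeks. The left inguinal pad had received cells of E0771, a mouse breast cancer line that grows in the mammary fat of this strain, in PBS and Matrigel, and is the tumor-associated IWAT; the right pad had received PBS and Matrigel without cells and is the control IWAT, and both were collected 2 weeks later. Per the study's methods, the tumor was cut out together with a layer of the fat around it. The most peripheral IWAT was left out of the RNA sequencing. The libraries therefore do not hold whole pads, though they are called pads below. The tumor cells always went into the left pad, so that the side and the tumor cannot be told apart, and the control is a pad injected in a tumor-bearing animal rather than an untouched pad. The other 12 libraries are the same pads of 6 obese mice on a high fat diet and were used where the tumor change was compared between diets and in alternative fits of the lean comparison to all 22 libraries.

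White adipose tissue stores triglyceride in adipocytes, which take up fatty acids from the blood, make them anew from glucose, and release them again on adrenergic signals. Between the adipocytes lie fibroblasts and progenitors that lay down collagen, vessels, and macrophages, and the inguinal pad of a female mouse also holds the ducts of the mammary gland and a lymph node, which the study's methods say was removed before the pads were collected. Monocytes enter the tissue along gradients of CC chemokines, and cells that sense type I interferons switch on a shared set of antiviral genes through a shared transcription factor complex that contains IRF9.

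Between 5759775 and 8598108 reads per lean library lay on genes. Levels are given as CPM, the counts scaled to a common library size with TMM factors. Differences are log2 fold changes, positive where the tumor-associated pad was higher, with the standard error (SE). A call means that edgeR's quasi-likelihood test gave p under 0.05 after Benjamini-Hochberg adjustment, with the mouse as a block, so that each tumor-associated pad was set against the other pad of the same animal. Control mouse 2 stood apart in B cell genes, whose summed level was 103 CPM there and 4.28 to 18.9 CPM in the other control libraries, and tumor-associated mouse 2 in skeletal muscle genes (68.8 CPM summed, against 17.5 to 21.1 CPM in the other tumor-associated libraries). The counts without both pads of mouse 2 are therefore given where they matter. These are bulk libraries, in which fewer cells of a type and less RNA per cell cannot be told apart.

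Of the 13750 genes, 2671 (19.4%) were called, 1496 (10.9%) higher and 1175 (8.55%) lower in tumor-associated IWAT. The rises were the larger changes. A log2 fold change above 1 was reached by 392 of the genes called higher and one below -1 by 54 of the genes called lower, and the median over all genes tested was -0.01. Of the genes called higher, 1400 were higher in the tumor-associated pad of 5 of 5 mice, and of those called lower 1123 were lower in 5 of 5. The calls come from a test on these same 5 pairs, so that this agreement is no separate support. Without both pads of mouse 2 the count was 2139, without the pads of mouse 3 it was 1509, and without the mouse as a block it was 1437.

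**Figure D1:**
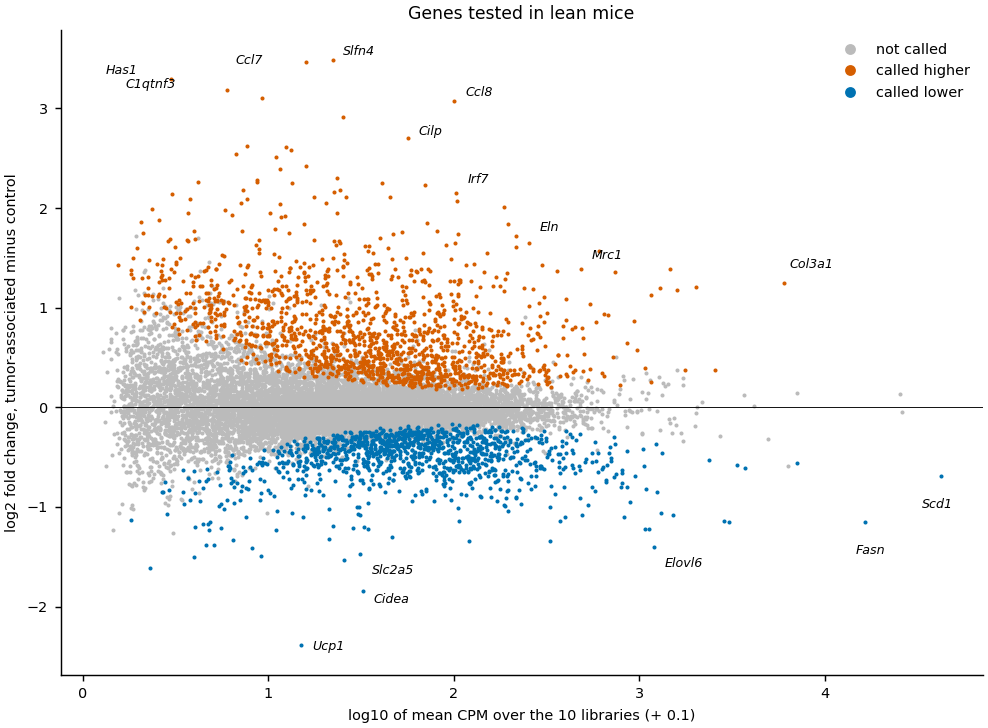
Each point is a gene tested in lean mice, with the log10 of its mean CPM over the 10 libraries on the x axis and its log2 fold change, tumor-associated over control, on the y axis, colored by the edgeR call. The points called higher reach 3.49 (Slfn4) and those called lower reach -2.39 (Ucp1), and the most abundant genes that fell, Scd1 and Fasn, make fatty acids.

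Interferon response genes rose without exception. All 47 tested members of a list of 48 type I interferon response genes were called higher, with a median log2 fold change of 1.38 and a lowest of 0.52. Isg15, a ubiquitin-like protein that is joined to other proteins during antiviral responses, was at 6.57, 7.85, 8.41, 8.27 and 8.08 CPM in the control pads of mice 0, 2, 3, 6 and 9, the order kept below, and at 33.8, 66.3, 42.5, 24.1 and 20.2 CPM in the tumor-associated pads. The control pads were alike and each tumor-associated pad lay above all of them, a log2 fold change of 2.16 (SE 0.23, edgeR adjusted p = 0.00244). Irf7, the factor that amplifies interferon production, went from 29.7, 35.4, 42.2, 32.02 and 43.6 CPM to 171, 275, 181, 104 and 117 CPM, and its groups did not overlap either (log2 fold change 2.15, SE 0.20, edgeR adjusted p = 0.00162). Oas3, which makes the 2-5A second messenger that switches on the nuclease RNase L, was at 5.28, 4.88, 4.74, 4.57 and 7.75 CPM in control and at 55.6, 83.5, 44.5, 24.6 and 17.3 CPM in tumor-associated IWAT (log2 fold change 2.92, SE 0.35, edgeR adjusted p = 0.00253). The groups did not overlap. Mouse 2 had the highest tumor-associated level of all 3 genes, and mouse 9 the lowest of Isg15 and Oas3.

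The largest log2 fold change of any called gene, 3.49, was that of Slfn4, a Schlafen gene of myeloid cells (SE 0.57, edgeR adjusted p = 0.0054). It was at 2.11, 3.14, 2.29, 2.11 and 5.89 CPM in control and at 46.5, 99.2, 39.7, 15.8 and 6.72 CPM in tumor-associated IWAT. The pads of mouse 9 nearly met, while the other mice differed several-fold. Genes with smaller changes had smaller standard errors: Irf9, the DNA-binding subunit of the interferon-activated factor, rose by 0.78 (SE 0.06) and Adar, an RNA-editing enzyme, by 0.92 (SE 0.07). Irf9 and Adar were among the 10 genes with the smallest p of all, as were Oas2 at 2.23 and the apolipoprotein L gene Apol9b at 2.09. Irf9 shares bases with Rnf31 on the same strand and Adar overlaps Chrnb2 on the other. Reads there could be left out of the counts or given to the wrong gene. In each of the 13 other settings tried at least 44 of the 47 genes were called higher.

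The promoters of the 47 interferon response genes were searched for the core of the interferon-stimulated response element, GAAANNGAA, on both strands. N is any base, and overlapping matches count separately. RefSeq promoter windows were at hand for 34 of the 47 genes, and in the 250 bases before the start site 16 of the 34 (47.1%) held the core, while 7.61% of the 10860 tested genes with a window and 7.13% of all 32851 windows did. A match is a string of letters and not a measured binding site. All tested members of the list were called, so that this share describes the list and is no separate support for the rise. The 150 bases before the start of 3 of the genes with the most matches and of Oas3 follow, 5′ to 3′ on the strand of the gene (GRCm38.p6), with the matched letters in capitals.
Isg15, chr4:156200819-156200968, minus strand: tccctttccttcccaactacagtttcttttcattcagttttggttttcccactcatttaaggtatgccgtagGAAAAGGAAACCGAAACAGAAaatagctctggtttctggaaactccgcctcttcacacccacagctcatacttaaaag
Ifit1, chr19:34640739-34640888, plus strand: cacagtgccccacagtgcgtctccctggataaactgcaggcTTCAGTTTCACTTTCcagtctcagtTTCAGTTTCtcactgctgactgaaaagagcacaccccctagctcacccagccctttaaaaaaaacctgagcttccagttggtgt
Ifit3, chr19:34583379-34583528, plus strand: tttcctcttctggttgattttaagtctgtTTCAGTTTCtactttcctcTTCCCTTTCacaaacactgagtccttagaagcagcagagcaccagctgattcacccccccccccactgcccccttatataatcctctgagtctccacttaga
Oas3, chr5:120777660-120777809, minus strand: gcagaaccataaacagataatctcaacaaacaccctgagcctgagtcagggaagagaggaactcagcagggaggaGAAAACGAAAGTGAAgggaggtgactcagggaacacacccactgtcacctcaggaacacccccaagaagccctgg
In the printed bases of Isg15 and Oas3 the core reads forward, and in those of Ifit1 and Ifit3 it stands on the opposite strand. In the printed bases of all 4 it lies between 66 and 121 bases before the start. Isg15 holds 3 matches in the printed bases, Ifit1 3, Ifit3 2 and Oas3 2. Over the 250 bases Ifit3 holds 3. Ifit1, an antiviral RNA-binding protein, rose by 1.85 (SE 0.27, edgeR adjusted p = 0.00394).

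The immunity-related and guanylate-binding GTPases, which interferon-gamma induces most strongly, rose in part. Of 15 tested, 10 were called higher and none lower, with a median log2 fold change of 0.78. Irgm1 rose by 1.06 (SE 0.20), Gbp3 by 1.04 (SE 0.16) and Irgm2 by 1.02 (SE 0.16), and Irgm2 shares bases with Igtp of the same family. Of 15 genes of MHC class I antigen presentation, 11 were called higher, with a median of 0.50. H2-T23, a non-classical class I molecule, rose by 0.95 (SE 0.12), the peptide transporter subunit Tap1 by 0.76 (SE 0.13), and the classical heavy chains H2-K1 and H2-D1 by 0.40 (SE 0.08) and 0.32 (SE 0.07). H2 genes are close copies, whose reads can be left out of the counts or given to the wrong copy. Without the pads of mouse 0, 3 or 6 the count of class I genes called was 6, 6 or 5, and without those of mouse 3 that of the GTPases was 6.

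MHC class II, which presents peptides on dendritic cells, B cells and macrophages, did not share in this. None of 9 tested genes was called by edgeR (0 at an unadjusted p under 0.05, and 0 by DESeq2), and their median log2 fold change was -0.06. H2-Aa was at 349, 459, 249.6, 219 and 465 CPM in control and at 312, 339, 382, 292 and 315 CPM in tumor-associated IWAT. It was higher in the tumor-associated pad of mice 3 and 6 and lower in that of mice 0, 2 and 9 (log2 fold change -0.03, SE 0.17, edgeR adjusted p = 0.936). Cd74, the invariant chain, had -0.02 (SE 0.15).

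**Figure D2:**
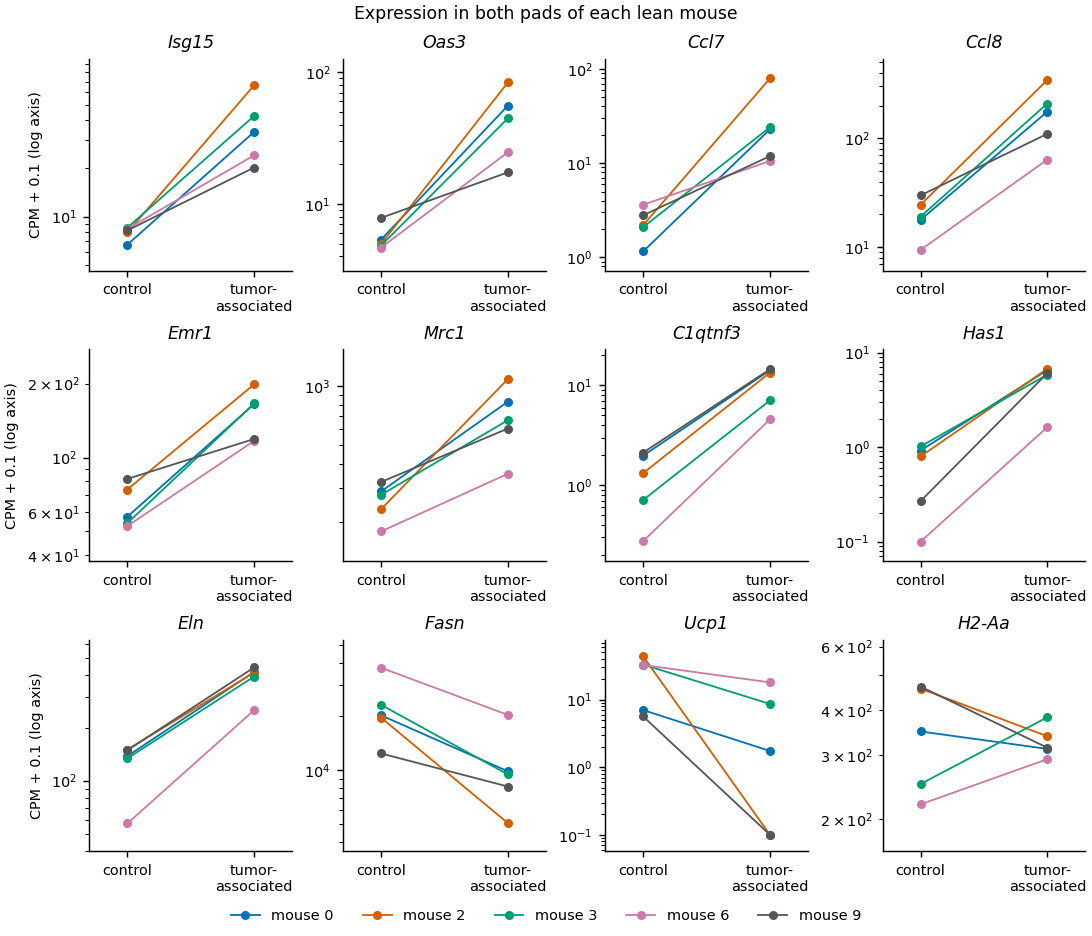
CPM (plus 0.1, log axis) of 12 genes in the control and tumor-associated pad of each lean mouse, with a line per mouse. Isg15, Oas3, Ccl7, Ccl8, Emr1, Mrc1, C1qtnf3, Has1 and Eln rise and Fasn and Ucp1 fall along all 5 lines, while H2-Aa rises in 2 mice and falls in 3.

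Chemokines that draw monocytes were among the largest rises. Of 18 tested CC chemokines and their receptors, 11 were called higher and none lower, with a median log2 fold change of 1.37. Ccl2, Ccl7, Ccl12 and Ccl8 lie near each other on chromosome 11, between bases 82035571 and 82116799. Ccl7, a ligand of CCR2, was at 1.06, 2.09, 1.99, 3.52 and 2.69 CPM in control and at 22.7, 79.1, 23.9, 10.4 and 11.8 CPM in tumor-associated IWAT. Ccl8 was the most abundant of the 4, with 17.7, 24.4, 19.0, 9.32 and 29.8 CPM in control and 176, 344, 209, 63.8 and 110.0 CPM in tumor-associated IWAT. For both genes every tumor-associated pad lay above every control pad, and the pad of mouse 2 was the highest (log2 fold changes 3.47, SE 0.46, edgeR adjusted p = 0.00305, and 3.07, SE 0.25, edgeR adjusted p = 0.00129). Ccl2, the main CCR2 ligand, went from 2.58, 1.92, 4.89, 4.40 and 2.86 CPM to 18.8, 55.8, 16.6, 12.99 and 11.5 CPM, a log2 fold change of 2.58 (SE 0.41, edgeR adjusted p = 0.00472), and Ccl12 had 2.54 (SE 0.37). Ccl2 overlaps Gm17268 on the other strand.

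Ccr2, the receptor that lets monocytes leave the bone marrow and enter tissue, was at 85.7, 114, 67.6, 51.7 and 108 CPM in control and at 99.7, 113, 86.5, 71.8 and 68.5 CPM in tumor-associated IWAT. It was higher in the tumor-associated pad of 3 mice and lower in 2 (log2 fold change 0.07, SE 0.15, edgeR adjusted p = 0.796). Among 11 CXC chemokines and receptors 1 was called, the scavenging receptor Cxcr7 (Ackr3), with a log2 fold change of 0.49 (SE 0.12, edgeR adjusted p = 0.0196), and that call was lost without the pads of mouse 2, 3 or 6. Cxcl9 had -0.15 (SE 0.17) and Cxcl10 0.91 (SE 0.46, edgeR adjusted p = 0.217); both attract T cells and are induced by interferon-gamma. Cxcl10 was called higher without the pads of mouse 9.

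Of the 8 CC chemokine ligands called, RefSeq windows were at hand for 4, and none of the 4 held the NF-kB core GGANTTTCC on either strand in the 250 bases before the start, a string that 1.36% of the tested genes with a window held there.

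Most macrophage genes rose. In a list of 20 pan-macrophage genes all were tested, 17 were called higher and none lower, with a median log2 fold change of 1.14, and their summed level was between 864 and 1879 CPM in control and between 1734 and 3537 CPM in tumor-associated IWAT. Emr1 (Adgre1), the F4/80 antigen, was at 57.2, 73.9, 53.8, 52.4 and 81.7 CPM in control and at 165, 199, 166, 117 and 119 CPM in tumor-associated IWAT, without overlap (log2 fold change 1.26, SE 0.15, edgeR adjusted p = 0.00253). The high-affinity IgG receptor Fcgr1 had the largest change of the list, 2.30 (SE 0.28), followed by Fcgr4 at 1.95 (SE 0.36). Cd68, Itgam and the growth factor receptor Csf1r rose by 1.55, 1.49 and 1.01. Ptprc, the pan-leukocyte antigen CD45, Lgals3 and Mpeg1 had positive log2 fold changes but were not called. The study's flow cytometry, which counts cells and not RNA, found no such increase of macrophages in lean mice. Its samples held most of the pad, and the study names the fat farther from the tumor as a possible reason.

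Genes of resident, perivascular macrophages rose too: 12 of 15 were called higher, with a median of 1.37. Mrc1, the mannose receptor CD206, was at 287, 233, 276, 179 and 321 CPM in control and at 834, 1090, 669, 354 and 606 CPM in tumor-associated IWAT. Each tumor-associated pad exceeded all control pads, with mouse 2 highest and mouse 6 lowest (log2 fold change 1.39, SE 0.18, edgeR adjusted p = 0.00288). The hyaluronan receptor Lyve1, which also marks lymphatic vessels, rose by 1.76 (SE 0.31), the folate receptor Folr2 by 1.5003 (SE 0.20), Cbr2 by 1.55 (SE 0.27) and the hemoglobin scavenger receptor Cd163 by 1.11 (SE 0.22).

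Monocyte genes divided. Of 11 tested, 7 were called higher and none lower, with a median of 1.73. Ly6c2, which marks classical monocytes, was at 0.938, 5.40, 1.07, 0.528 and 1.52 CPM in control and at 13.3, 24.7, 32.9, 9.04 and 1.68 CPM in tumor-associated IWAT. The pads of mouse 9 were nearly equal, and control mouse 2 lay above tumor-associated mouse 9, so that the groups overlapped (log2 fold change 3.11, SE 0.50, edgeR adjusted p = 0.00501). Ms4a4c, Clec4n (Dectin-2), Ms4a6d and Plac8 rose by 2.61, 2.62, 2.18 and 1.76. Ccr2 was not called.

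The share of lipid-laden macrophage genes of obese fat that was called was near that of all genes. Of 18 tested, 2 were called higher and 2 lower (22.2%, beside 19.4% over all genes), with a median of 0.29. Trem2, a lipid receptor, had a log2 fold change of 1.70 with a SE of 0.56 (edgeR adjusted p = 0.0676), Spp1 (osteopontin) 0.92 (SE 0.62) and Gpnmb 0.30 (SE 0.26). Trem2 was called higher in DESeq2 and in the lean fit without the block. Acp5 and the droplet coat gene Plin2 fell by 0.53 and 0.46 on the log2 scale. In edgeR 11 of the 18 passed an unadjusted p under 0.05, 3 of them lower, beside 4446 of all 13750 genes. DESeq2 called 7 of 19, 5 of them higher, beside 1960 of all 14688 genes.

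Complement and sensors of the innate system changed with the macrophage genes. Of 18 complement genes 13 were called higher and 1 lower, with a median of 0.81. The C1q chains C1qa and C1qc rose by 1.34 and 1.36 and the anaphylatoxin receptors C5ar1 and C3ar1 by 1.67 and 1.49, while C3 itself had 0.22 (SE 0.11, edgeR adjusted p = 0.208). Of 20 pattern recognition receptors and myeloid lectins 17 were called higher, with a median of 0.85, among them the endosomal receptors Tlr13 (1.84) and Tlr7 (1.41), the scavenger receptor Msr1 (1.67) and Tlr2 (0.89). Without the pads of mouse 0 or 3, 11 of the 20 were called, and without the mouse as a block 8.

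Classical inflammatory cytokines were few. Il6, Tnf and the acute phase gene Saa3 had too few counts to be tested, with at most 3.09, 4.07 and 6.18 CPM in any lean library, and Il1b had 1.14 (SE 0.40, edgeR adjusted p = 0.0826). Il1b was called higher without the pads of mouse 9. Saa3, which the study lists among the genes raised in tumor-associated IWAT, was left out by the low-count filter, which gives no direction. Of the 24 tested cytokine and acute phase genes, 12 were called higher and 3 lower. The hemoglobin-binding protein Hp rose by 1.57 (SE 0.25) and the alarmin Il33 by 1.05 (SE 0.17), and the inducible nitric oxide synthase Nos2 fell by 0.93 on the log2 scale (SE 0.22, edgeR adjusted p = 0.0198), a call lost without the pads of mouse 2, 3 or 6. The count called higher was 3 without the mouse as a block and 7 without the pads of mouse 0.

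Lymphocyte genes gave no such pattern. Of 13 tested T and NK cell genes 2 were called higher, the protease Gzmb by 1.75 (SE 0.34) and the shared cytokine receptor chain Il2rg by 0.96 (SE 0.21), and Cd3g and Cd8a were at -0.23 and 0.36 and not called. The sum of the list was 34.0 to 125 CPM in control and 51.2 to 97.9 CPM in tumor-associated IWAT, with its highest value in control mouse 2. Of the neutrophil genes 2 of 5 tested were called higher, Clec5a (1.68) and Csf3r (1.32), while the defining S100a8 and S100a9 were too low to be tested. The lowest log2 fold change among the tested members was -0.29, not called. The summed level of the neutrophil list was higher in the tumor-associated pad of 3 of 5 mice.

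**Figure D3:**
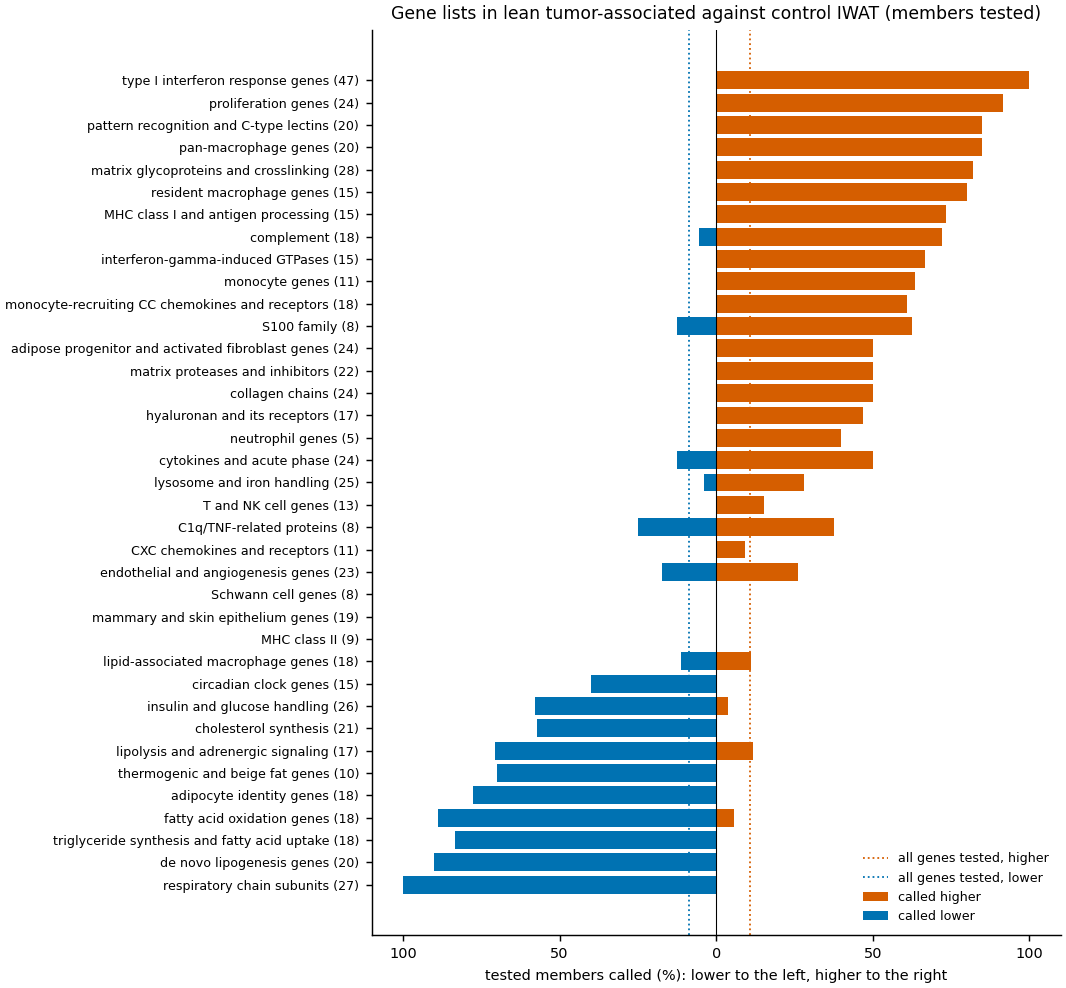
For each gene list with at least 5 tested members, bars give the percent of tested members called higher (to the right) and lower (to the left) in lean tumor-associated IWAT, with the number tested in parentheses, and dotted lines give the same over all genes tested (10.9% and 8.55%). All 47 interferon genes lie to the right and all 27 respiratory chain genes to the left, and no bar stands at MHC class II, Schwann cell and epithelium genes.

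Fibroblast and matrix genes formed the second group of rises. C1qtnf3, a secreted protein of the C1q and TNF-related family to which adiponectin belongs, was at 1.88, 1.22, 0.612, 0.176 and 2.02 CPM in control and at 14.0, 13.3, 6.96, 4.46 and 14.4 CPM in tumor-associated IWAT. The groups did not overlap, and the order of the mice was the same in both pads. Its log2 fold change of 3.18 (SE 0.22, edgeR adjusted p = 0.00108) ranked 4 among the 1496 genes called higher, and it was among the 10 with the smallest p. The related C1qtnf6 and C1qtnf1 rose by 0.92 (SE 0.12) and 0.64 (SE 0.09), and Adipoq, adiponectin, fell by 0.46 on the log2 scale.

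Of 28 matrix glycoproteins and crosslinking enzymes 23 were called higher and none lower, with a median log2 fold change of 0.88. Eln, elastin, had the smallest p of all genes and was at 138, 150.1, 134, 57.0 and 149 CPM in control and at 414, 411, 390.3, 251 and 439.7 CPM in tumor-associated IWAT. In mouse 6 both pads lay below those of the other mice, and every mouse rose (log2 fold change 1.65, SE 0.10). Cilp, a matrix protein of cartilage and activated fibroblasts, went from 13.1, 12.4, 14.4, 4.93 and 29.97 CPM to 129.99, 134, 55.4, 30.2 and 139 CPM (log2 fold change 2.70, SE 0.22, edgeR adjusted p = 0.00129). Cthrc1, a secreted protein of fibroblasts in wounds and scars, was at 3.52, 1.74, 1.84, 3.52 and 2.36 CPM in control and at 14.9, 10.98, 8.83, 11.1 and 12.99 CPM in tumor-associated IWAT (log2 fold change 2.18, SE 0.18, edgeR adjusted p = 0.00129). Neither gene overlapped between the pads. Fibronectin (Fn1) rose by 1.20, tenascin (Tnc) by 1.02 and the crosslinking enzyme Lox by 0.76.

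Collagen chains divided. Of 24 collagen chains 12 were called higher and none lower. Col3a1 was at 3773, 2869, 3167, 3857 and 4179 CPM in control and at 8850, 11071, 7313, 7087 and 8239 CPM in tumor-associated IWAT, so that every tumor-associated pad lay well above every control pad (log2 fold change 1.25, SE 0.16, edgeR adjusted p = 0.00293). Col12a1, which binds to fibrils, rose by 1.74 (SE 0.14) and Col1a1 by 1.13 (SE 0.12), while Col4a1 of basement membranes had 0.23 (SE 0.14, edgeR adjusted p = 0.311). In the fit to all 22 libraries with the mouse as a block 2 of the 24 were called, and Col3a1 was not. There 12 passed an unadjusted p under 0.05. Without the pads of mouse 3, 8 were called.

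Hyaluronan genes moved in part. Of 17 tested, 8 were called higher, with a median of 0.47. Has1, a hyaluronan synthase, was nearly silent in control IWAT at 0.821, 0.697, 0.918, 0 and 0.168 CPM and was at 6.42, 6.65, 5.75, 1.53 and 5.96 CPM in tumor-associated IWAT. All tumor-associated pads lay above the control pads, with mouse 6 lowest in both (log2 fold change 3.29, SE 0.36, edgeR adjusted p = 0.00244). The hyaluronan-binding proteoglycan Vcan rose by 1.84 (SE 0.21) and the receptor Cd44 by 0.89 (SE 0.12). Among proteases and their inhibitors 11 of 22 were called higher, led by Timp1 at 2.05 (SE 0.39), and Mmp3 rose by 0.99 (SE 0.24), a call lost without the pads of mouse 0 or 3. Without the pads of mouse 0 the count was 7.

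Of 24 genes of progenitors and activated fibroblasts 12 were called higher and none lower, with a median of 0.44. Lrrc15, a marker of myofibroblasts, rose by 1.91 (SE 0.18), Ly6a (Sca-1) by 1.61 (SE 0.17) and Thy1 by 1.23 (SE 0.14), and Fap by 0.50 (SE 0.09). The progenitor markers Pdgfra and Dpp4 had 0.20 (SE 0.13) and 0.56 (SE 0.19) and were not called. Dpp4 was called higher in DESeq2 and without the pads of mouse 0. Ly6a is also an interferon-induced gene.

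Cell division genes were called higher in 22 of 24 cases, with a median of 1.23. Mki67, present in all cycling cells, was at 26.1, 64.3, 26.5, 122 and 93.3 CPM in control and at 119, 146, 78.3, 264 and 115 CPM in tumor-associated IWAT. The groups overlapped widely because the control levels differed several-fold between mice, and within each mouse the tumor-associated pad was higher (log2 fold change 1.24, SE 0.22, edgeR adjusted p = 0.00715). Top2a, Cdk1 and Plk1 rose by 1.33, 1.67 and 1.61. Without the mouse as a block 2 of the 24 genes were called, with 19 at an unadjusted p under 0.05. Without the pads of mouse 6, 14 were called. Which cells divide cannot be read from bulk libraries, and the part of the macrophage and fibroblast genes in this was not tested.

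Genes of the adipocyte fell. Of 18 adipocyte identity genes 14 were called lower and none higher, with a median log2 fold change of -0.57, and their summed level was between 25379 and 32296 CPM in control and between 15457 and 26139 CPM in tumor-associated IWAT, lower in the tumor-associated pad of 5 of 5 mice. Pparg, the master regulator of the adipocyte, was at 188, 203, 202, 248 and 165 CPM in control and at 127, 123, 119, 146 and 134 CPM in tumor-associated IWAT. The groups did not overlap (log2 fold change -0.62, SE 0.08, edgeR adjusted p = 0.00288). Adipoq was at 1692, 1324, 1646, 1306 and 1645 CPM in control and at 979, 1233, 1041, 842 and 1505 CPM in tumor-associated IWAT. It was lower in the tumor-associated pad of every mouse, but the groups overlapped and the call (log2 fold change -0.46, SE 0.12, edgeR adjusted p = 0.0307) was lost without the pads of mouse 0, 3 or 6. The lipid droplet protein Plin1 and the factor Cebpa fell by 0.62 and 0.57, and leptin (Lep) had -0.43 (SE 0.17, edgeR adjusted p = 0.131). Lep was called lower in DESeq2 and without the pads of mouse 2. Without the pads of mouse 3, and likewise of mouse 6, 7 of the 18 were called, and in the edgeR fits to all 22 libraries 0 were, with 4 (no block) and 2 (block) at an unadjusted p under 0.05.

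Fatty acid synthesis genes fell further than the adipocyte list, a difference of medians that was not tested. Of 20 de novo lipogenesis genes 18 were called lower and none higher, with a median of -0.98. Fasn, fatty acid synthase, was at 20294, 19689, 23223, 37428 and 12429 CPM in control and at 9879, 5071, 9489, 20405 and 8124 CPM in tumor-associated IWAT. Tumor-associated mouse 6 matched the control pads of other mice, and still every mouse had less in its tumor-associated pad (log2 fold change -1.15, SE 0.20, edgeR adjusted p = 0.00624). Elovl6, which elongates palmitate, went from 1129, 1465, 1663, 3607 and 590.0 CPM to 526, 205, 617, 1844 and 339 CPM (log2 fold change -1.41, SE 0.27, edgeR adjusted p = 0.00924). Acly, which makes cytosolic acetyl-CoA from citrate, was at 3746, 2822, 3762, 8340 and 2022 CPM in control and at 1776, 794, 1524, 4575 and 1253 CPM in tumor-associated IWAT. Mouse 6 was the highest in both pads for each of these genes.

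The genes of the other steps of the pathway went the same way. The acetyl-CoA carboxylases Acaca and Acacb fell by 1.14 and 1.35, malic enzyme Me1 by 1.22, the lipogenic regulator Thrsp by 1.22, the desaturase Scd1 by 0.69, and the transcription factors Srebf1 and Mlxipl (ChREBP) by 0.62 and 0.88. The call of Scd1 was lost without the pads of mouse 0, 2, 3 or 6 and in DESeq2. The calls of these falls rest on the comparison within mice. The summed level of the 20 genes was between 52181 CPM (mouse 9) and 147685 CPM (mouse 6) in control IWAT alone. Without the mouse as a block 1 of the 20 was called, with 14 lower at an unadjusted p under 0.05. With the block 17 to 19 were called when a mouse was left out. In the fit to all 22 libraries with the block it was 8.

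**Figure D4:**
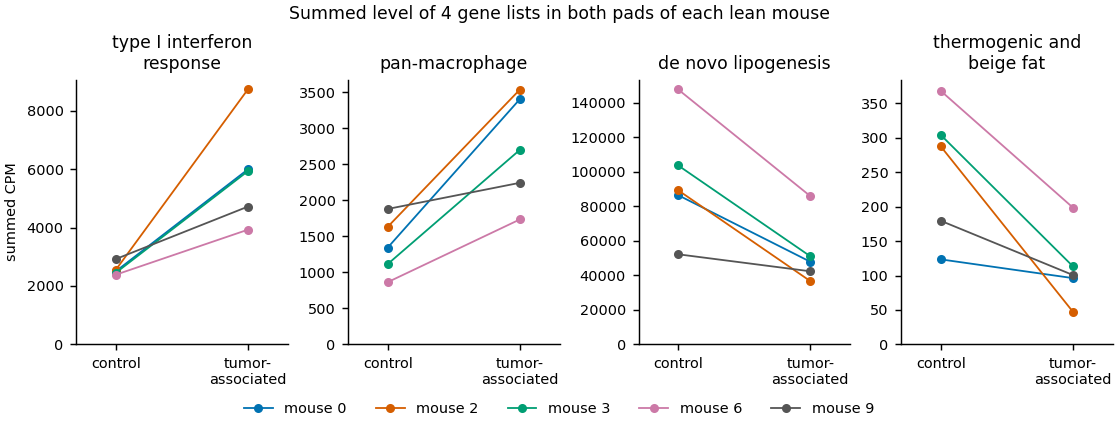
Summed CPM of 4 gene lists in the control and tumor-associated pad of each lean mouse, with a line per mouse and axes that start at 0. The interferon and macrophage sums rise and the lipogenesis and thermogenic sums fall along all 5 lines, and the control lipogenesis sums of mice 6 and 9 lie farther apart than the pads of any mouse.

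Genes of insulin signaling and glucose handling were read next, as RNA only. Of 26 insulin and glucose genes 15 were called lower and 1 higher. Slc2a5, the fructose transporter, was at 34.0, 28.2, 37.3, 96.9 and 27.1 CPM in control and at 17.0, 3.56, 11.6, 47.2 and 10.2 CPM in tumor-associated IWAT, lowest in tumor-associated mouse 2 (log2 fold change -1.48, SE 0.23, edgeR adjusted p = 0.00439). Hk2, the insulin-responsive hexokinase, went from 262, 212, 312, 487 and 152 CPM to 145, 104, 144, 257 and 96.7 CPM, a log2 fold change of -0.91 (SE 0.08, edgeR adjusted p = 0.00129). Both were lower in the tumor-associated pad of 5 of 5 mice with overlapping groups. Slc2a4 (GLUT4) fell by 0.91 on the log2 scale, and Hk3, the hexokinase of myeloid cells, rose by 1.303.

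Triglyceride synthesis, lipolysis and cholesterol synthesis genes fell too. Of 18 triglyceride genes 15 were called lower, among them Agpat2 (a fall of 1.11), Gpd1 (1.10) and Pck1 (0.96). Of 17 lipolysis and adrenergic genes 12 were called lower and 2 higher, and the lipases Pnpla2 (ATGL) and Lipe (HSL), the receptor Adrb3 and the phosphodiesterase Pde3b fell by 0.67, 0.70, 0.74 and 0.79, so that storage and release genes went down together. Plin5, which ties lipid droplets to mitochondria, fell by 1.41. In both fits to all 22 libraries the count of triglyceride and of lipolysis genes called lower was 0 by edgeR, with 7 triglyceride genes and 3 (no block) or 2 (block) lipolysis genes lower at an unadjusted p under 0.05. DESeq2 on the lean libraries called 15 triglyceride genes. Of 21 cholesterol genes 12 were called lower: Insig1, the sterol sensor, fell by 0.98 and Hmgcs1 by 0.59. Without the block edgeR called 0 of the 21, with 5 at an unadjusted p under 0.05, while DESeq2 with the block called 11, and without the pads of mouse 6 it was 8.

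The sterol regulatory element core TCACNCCAC was searched in the same way, since Srebf1 acts on it. It was held by 1 of the 16 called lipogenesis genes with a window (Mlxipl) and by 1 of the 9 called cholesterol genes with a window (Hmgcs1), beside 1.27% of the tested genes. Both matches read forward and lie 136 and 137 bases before the start, in capitals here, with the 150 bases before the start 5′ to 3′ (GRCm38.p6).
Mlxipl, chr5:135106741-135106890, plus strand: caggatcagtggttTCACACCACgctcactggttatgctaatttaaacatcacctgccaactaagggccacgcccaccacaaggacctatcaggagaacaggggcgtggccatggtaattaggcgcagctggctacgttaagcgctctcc
Hmgcs1, chr13:119690201-119690350, plus strand: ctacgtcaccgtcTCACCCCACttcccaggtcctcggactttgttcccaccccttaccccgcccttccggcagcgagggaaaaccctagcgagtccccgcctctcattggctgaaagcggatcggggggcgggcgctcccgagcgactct

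Mitochondrial genes fell. All 27 respiratory chain subunits tested were called lower, between -1.53 and -0.41 with a median of -0.53, and 25 were called in the fit to all 22 libraries with the block. Cyc1 (cytochrome c1) fell by 0.72 and Ndufs1 of complex I by 0.65. Of 18 genes of fatty acid oxidation 16 were called lower, such as Acadm and Hadhb, each by 0.83, and 1 higher. In the fit to all 22 libraries with the block 1 was called lower, with 14 lower at an unadjusted p under 0.05. Cpt1a, the liver-type carnitine transferase that admits fatty acids to mitochondria, rose by 0.60 (SE 0.09, edgeR adjusted p = 0.0038) in 5 of 5 mice.

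Genes of heat-producing fat had a low median, and many of their calls depended on the setting. Of 10 tested, 7 were called lower, with a median of -1.20. Ucp1, the uncoupling protein of brown and beige adipocytes, was at 6.92, 43.9, 33.0, 32.5 and 5.56 CPM in control and at 1.64, 0, 8.56, 18.0 and 0 CPM in tumor-associated IWAT. It was absent from the counts of tumor-associated mice 2 and 9, and its log2 fold change of -2.39 (SE 0.67, edgeR adjusted p = 0.0385) was not called by DESeq2 or without the pads of mouse 0, 3 or 9. Cidea, a droplet protein enriched in beige fat, went from 15.1, 62.2, 64.997, 82.0 and 28.0 CPM to 11.1, 1.08, 15.8, 30.05 and 11.8 CPM (log2 fold change -1.84, SE 0.48, edgeR adjusted p = 0.0298), and its call was lost in DESeq2 and without the pads of mouse 3 or 6. Cox8b and Cox7a1, subunits of cytochrome oxidase in muscle and brown fat, fell by 1.53 and 1.38 and the coactivator Ppargc1a by 1.06. Without the block 1 of the 10 was called, and without the pads of mouse 3 or 6 it was 2 or 3.

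Other falls among the 12 largest named by the rule were the potassium channel gene Kcng4 (-1.61), the membrane protein gene Mmd2 (-1.497), Lrtm1 (-1.38) and Ppp1r3b (-1.34), which directs phosphatase to glycogen. The rule picked only genes lower in 5 of 5 mice, and the groups of all 4 overlapped.

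Vascular genes went both ways. Of 23 endothelial and angiogenesis genes 6 were called higher and 4 lower, with a median of 0.11. Plvap, Vwf and Pecam1 rose by 0.80, 0.72 and 0.37, and Cdh5 had 0.11 (SE 0.09, edgeR adjusted p = 0.444). Vegfa, the main vessel growth factor, was at 177, 214, 215, 222 and 198 CPM in control and at 138, 133, 152, 155 and 161 CPM in tumor-associated IWAT, lower without overlap (log2 fold change -0.47, SE 0.07, edgeR adjusted p = 0.00392). Its receptor Kdr fell by 0.40 (SE 0.06).

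Among smaller lists, 7 of 25 lysosome and iron genes were called higher and 1 lower, with Hmox1, which breaks down heme, rising by 1.34 (SE 0.21) and the protease Ctsc by 1.16. Without the pads of mouse 0 or 3 it was 4 genes. Of 15 clock genes 6 were called lower and none higher, Dbp by 0.82, Nr1d1 (REV-ERB alpha) by 0.65 and Per3 by 0.60 (3 genes without the pads of mouse 6), while Arntl (BMAL1) had 0.14 (SE 0.07, edgeR adjusted p = 0.201). The time of day of collection is not given in the sources used here, and both pads come from the same animal.

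Markers of other cell types that the pad can hold were set beside these results. None of 19 tested mammary and skin epithelium genes was called by edgeR (1 at an unadjusted p under 0.05, 0 by DESeq2), with a median log2 fold change of 0.04, and their sum was 1443 to 2486 CPM in control and 1436 to 2756 CPM in tumor-associated IWAT. Krt8, a keratin of luminal cells, was at 325, 239.7, 330.0, 219.7 and 173 CPM in control and at 295, 204, 477, 297 and 202 CPM in tumor-associated IWAT, higher in the tumor-associated pad of 3 mice and lower in 2 (edgeR adjusted p = 0.396). Epcam and Krt5 had -0.04 (SE 0.14) and -0.05 (SE 0.10). The germline and embryonic genes that an earlier analysis had found in obese tumor-associated libraries summed to 0.35 to 2.45 CPM in control and 0.62 to 8.97 CPM in tumor-associated IWAT of lean mice, highest in mouse 0, and none of the 10 passed the filter. Their part and that of tumor cells in the results was not tested; without the pads of mouse 0, 44 interferon and 17 pan-macrophage genes were called higher. None of the tested Schwann cell (8), B cell (2), erythroid (2) or skeletal muscle (2) genes was called by edgeR, and at an unadjusted p under 0.05 there were 1, 0, 2 and 1. DESeq2 called 1 erythroid gene and 0 of the other 3 kinds. Without the pads of mouse 2, which stood apart in muscle, erythroid and B cell genes, 45 interferon, 17 pan-macrophage, 23 matrix glycoprotein and 18 lipogenesis genes were called in the same direction.

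**Figure D5:**
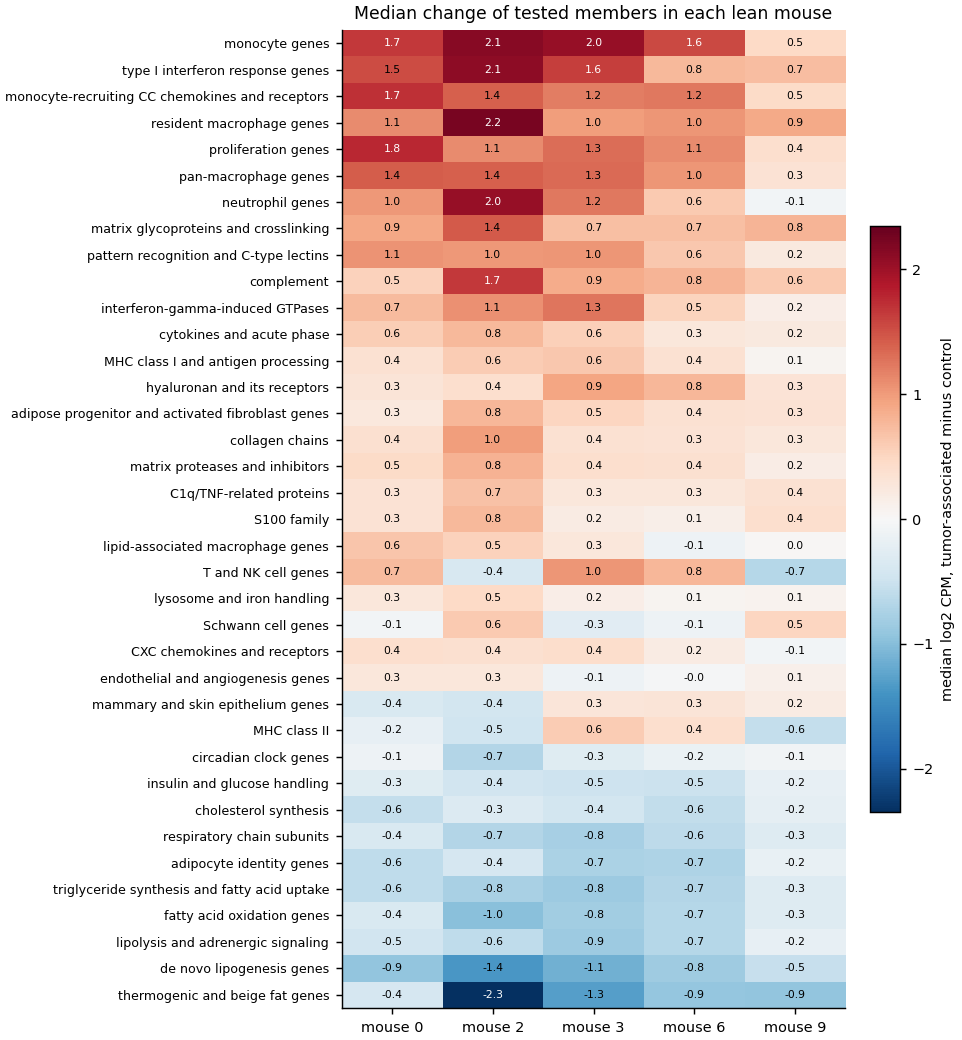
Colors and numbers give the median log2 difference between tumor-associated and control IWAT over the tested members of each list (rows) in each lean mouse (columns), red where the tumor-associated pad was higher. The column of mouse 9 is the palest for the macrophage, monocyte, interferon, lipogenesis and respiratory chain lists, and that of mouse 2 is the darkest for the interferon, resident macrophage and lipogenesis lists.

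In the 3 lists that follow, which were called by the test within mice, the mice differed in the size of the change. The median log2 difference over the interferon genes was 1.53, 2.09, 1.63, 0.76 and 0.73 in mice 0, 2, 3, 6 and 9. Over the pan-macrophage genes it was 1.41, 1.41, 1.33, 1.03 and 0.33. Over the lipogenesis genes it was -0.93, -1.37, -1.13, -0.84 and -0.54. Mouse 9 had the smallest difference of the 5 mice in each of these lists, and mouse 2 the largest for interferon and lipogenesis. For matrix glycoproteins the medians were 0.91, 1.43, 0.72, 0.71 and 0.80, and mouse 9 was not the lowest. Other lists changed sign between mice, as MHC class II did with -0.20, -0.46, 0.59, 0.39 and -0.56 and the T and NK cell genes with 0.74, -0.38, 1.03, 0.78 and -0.67.

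Whether the tumor change differed in obese mice was tested in 1 fit to all 22 libraries with the mouse as a block, as the log2 fold change in obese mice less that in lean mice. Of 14458 genes 604 (4.18%) were called, 152 of them among the 2671 genes called in lean mice. Elovl6 and Acly, which fell in lean mice, differed by 1.95 (SE 0.43, edgeR adjusted p = 0.037) and 1.23 (SE 0.22, edgeR adjusted p = 0.0265), and their log2 fold changes in obese mice were 0.56 and 0.10. Hk2 differed by 1.05 (SE 0.13, edgeR adjusted p = 0.00916). Ccr2, not called in lean mice, differed by 1.91 (SE 0.31, edgeR adjusted p = 0.0202). C1qtnf3 had a difference of 0.16 (SE 0.64, edgeR adjusted p = 0.879) and Isg15 of 0.65 (SE 0.36, edgeR adjusted p = 0.218), neither of them called. The count of 604 was 6 to 114 when a lean mouse was left out, in fits with fewer libraries. Hk2 kept its call without each lean mouse in turn, and Elovl6 lost it each time with differences of 1.61 to 2.10. The libraries of the lean comparison also enter this test.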

How the data were processed

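RNA of tumor-associated and control IWAT was sequenced after ribosomal RNA depletion. Per the labels and the submitters' processing notes, the authors checked reads with FastQC, aligned them to mm10 with STAR 2.4.0f and counted reads per gene with HTSeq; the strand setting and the annotation are not given in the sources used here. The deposited values are raw read counts per gene symbol. Reads HTSeq gave to no feature were 42.9% to 48.8% of the lean totals and stayed out of library sizes and tests. Lean libraries held 5759775 to 8598108 counts on genes (median 6485280), and intervals of low genes are limited by this depth.

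The 10 lean libraries were filtered with filterByExpr, scaled by TMM and tested with edgeR 4.0.16 (R 4.3.3, quasi-likelihood, Benjamini-Hochberg, threshold 0.05) with mouse as a block. Both pads of a number come from the same mouse, and the pads deviated together in 5 of 5 mice (Pearson r over genes of the pads' deviations from their group means, lowest 0.157, median 0.542). Between pads of different mice the median r was -0.148. Of the 5 tumor-associated pads, 4 were nearest the control pad of their own mouse. That of mouse 3 was not (r 0.202 with its own). Mice are separate animals. Log2 CPM used a prior count of 2. The diet difference was tested in 1 fit to all 22 libraries. The method was tested on simulated data. Alternatives were no block, all 22 libraries, DESeq2 1.42.0, other normalizations and filters, and leaving out each mouse. Named genes were the 12 largest rises and falls that went one way in all 5 mice (count minimum 10 in each library of the higher group), the 10 smallest p, marked or leading list members (up to 4 a list), and genes the study names. Members and lists were chosen with earlier results of these data known. Promoters are from RefSeq (GRCm38.p6), and gene overlaps from GENCODE M21, which held 21777 of the 23420 symbols. Some results are not reported here.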

Additional observations from a re-analysis of the deposited data

Results flagged for a closer look

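In 17 of 88 groups of 5 lean libraries tested, 1 library stood farther from the others than Dixon's limit allows, and chance flags about 1 in 20 groups. Control mouse 9 stood above the other control pads in Oas3 (7.75 CPM, others 4.57 to 5.28) and Slfn4 (5.89 CPM, others 2.11 to 3.14). Tumor-associated mouse 2 stood above the others in Ccl2 (55.8 CPM, others 11.5 to 18.8) and Ccl7 (79.1 CPM, others 10.4 to 23.9), and control mouse 2 in Ly6c2 (5.40 CPM, others 0.528 to 1.52). Mouse 6 was the lowest in Has1 (tumor-associated, 1.53 CPM, others 5.75 to 6.65) and in Eln (control, 57.0 CPM, others 134 to 150.1, and tumor-associated, 251 CPM, others 390.3 to 439.7). It was the highest in Elovl6 (tumor-associated, 1844 CPM, others 205 to 617), Slc2a5 (control, 96.9 CPM, others 27.1 to 37.3) and Acly (control, 8340.5 CPM, others 2022 to 3762, and tumor-associated, 4575 CPM, others 794 to 1776).

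Among summed marker genes, control mouse 2 stood apart in B cell genes (103 CPM, others 4.28 to 18.9) and skeletal muscle genes (31.4 CPM, others 15.5 to 18.3). Tumor-associated mouse 2 did so in skeletal muscle genes (68.8 CPM, others 17.5 to 21.1) and erythroid genes (113.6 CPM, others 15.3 to 23.8), and tumor-associated mouse 0 in germline and embryonic genes (8.97 CPM, others 0.618 to 2.54). Their part in the results was not tested.

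The tumor change of 11 named genes differed between obese and lean mice in the test of the difference itself. As obese minus lean log2 fold change, it was higher in obese mice for Elovl6 (1.95), Ccr2 (1.91), Ppp1r3b (1.56), Acly (1.23), Plin2 (1.14), Hk2 (1.05), Cd44 (0.98), Tagln2 (0.77) and Cyc1 (0.60). It was lower for Pecam1 (-1.24) and H2-T23 (-0.77). With no block or with 1 lean mouse left out, 50 of 66 values of these 11 genes lost the call, 16 kept it and 0 reversed.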

How the results depend on the processing

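Against 2671 genes changed (1496 higher, 1175 lower), the fit with no replicate block, which ignores the pairing of the pads by mouse, called 1437 (846 and 591), of which 1421 were also called with the block. The fits to all 22 libraries called 605 (473 and 132) without the replicate block and 669 (503 and 166) with it, and DESeq2 called 763 genes lower. Leaving out both pads of 1 mouse gave 1509 to 2713 changed genes, 903 to 1509 higher and 606 to 1204 lower, with fewer libraries in each fit. For the obese minus lean difference, leaving out 1 lean mouse, an alternative chosen after seeing the data, gave 33, 114, 6, 6 and 36 genes (without mouse 0, 2, 3, 6 and 9) in place of 604. Over 2007 alternative values of 156 genes, 1793 kept direction and side of the threshold, 206 lost the call, 8 gained it and 0 reversed. Of 135 genes called, 66 lost the call in the fit to all 22 libraries without the block and 59 with it, 37 in the lean fit without the block, 1 to 14 when a mouse was left out (14 without mouse 3, 12 without mouse 6) and 3 in DESeq2 (Scd1, Ucp1 and Cidea), and other normalizations and low-count filters lost 0. The cause of these shifts was not tested. Among lists, the block mattered most to the count called for lipogenesis (18 called lower with it, 1 without), proliferation (22 and 2) and cholesterol synthesis (12 and 0). It mattered little for interferon genes (47 and 45). At an unadjusted p under 0.05 without the block, 14 lipogenesis, 19 proliferation and 5 cholesterol genes passed. In the fit to all 22 libraries with the block, matrix glycoproteins fell to 8 genes called and complement to 7. At an unadjusted p under 0.05 it was 22 and 12 there. Genes of a few counts per library, such as Ucp1 and Il6, are limited by depth.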
